A study of Homo sapiens with 24 samples.

Results

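MV4-11 cells were exposed to 1 μM 8-chloro-adenosine (8CA) for 24 h and compared, gene by gene, with untreated MV4-11 cells of the same time point. The comparison rests on 4 of the 24 RNA-seq libraries of the series, 2 treated and 2 untreated replicates, taken by their labelled cell line, drug and time. Its members are genes: 12800 of the 23354 genes in the deposited table had enough reads in MV4-11 to be tested. The whole series holds 12 groups with 2 libraries each: MV4-11 or KG-1a cells, without drug, with 1 μM 8CA or with 1 μM 8-amino-adenosine (8AA), collected after 8 h or after 24 h. All MV4-11 groups are labelled wild type and none carries an engineered allele. The labels do not say whether replicates A and B came from separate cultures, so the p-values measure the spread between replicate libraries, which may be technical. That spread was estimated over all 12 MV4-11 libraries, or all 24 for the difference between lines, and not over the 4 compared libraries alone.

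MV4-11 is an established human acute myeloid leukaemia (AML) line with a monocytic character, which carries a KMT2A-AFF1 fusion and an internal tandem duplication of the receptor tyrosine kinase FLT3. 8CA is a ribonucleoside analog with a chlorine atom on the adenine base, and 8AA carries an amino group at the same place. Cells take such analogs up through nucleoside transporters, phosphorylate them with adenosine kinase to ATP analogs, and these are known to lower the ATP pool, to end growing RNA chains and to disturb polyadenylation. Bulk RNA reports the pooled transcripts of all cells in a culture, so a lower level here can come from fewer cells of a type or from less of that RNA per cell, and these cannot be told apart.

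The 4 libraries held 21660013 to 24520078 counted reads, within the range of the series, and the 10 most abundant genes took 4.93% to 5.45% of them. The replicates differed by more than counting noise, with a chi-square per degree of freedom of 2.56 for the untreated pair and 2.83 for the 8CA pair, so both libraries of each pair counted as replicates. Of 12 myeloid markers, 0 were at 0 in all 4 libraries. Together they summed to 3940 to 4130 CPM in the untreated and 3790 to 3830 CPM in the 8CA libraries. Most of each sum was LYZ, at 2850 and 3060 CPM untreated and 2630 and 2590 CPM with 8CA. The list did not move one way, as FLT3 had 476 and 475 CPM untreated and 609 and 595 CPM with 8CA. Both were singled out after their values were seen. For the markers of this paragraph, CPM is the read count scaled to the total reads of the library. Elsewhere CPM is the read count scaled to the normalised library size. CD14, the monocyte receptor for lipopolysaccharide, had between 3 and 5 counts in each library. All 6 erythroid markers and 5 of 6 T and NK markers were at 0. The remaining one was NKG7, named after its values were seen. It had 13.9 and 16.3 CPM in the untreated and 13.9 and 14.5 CPM in the 8CA libraries. Among 5 epithelial markers 3 were at 0, while the summed level of the list was 4.71 to 5.27 CPM untreated and 8.23 to 8.92 CPM with 8CA, mostly from KRT8, singled out after its values were seen. Which cells these transcripts came from was not tested, and the 3 markers at 0 were EPCAM, KRT19 and CDH1. Of the B cell markers 1 of 5 was at 0, with 2.04 to 2.53 CPM in the untreated and 2.41 to 2.66 CPM in the 8CA libraries. Of the stromal markers 3 of 5 were at 0, at 0.323 to 0.354 and 0.204 to 0.262 CPM.

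After 24 h of 8CA, lipid synthesis, glycolysis, chaperone, proteasome and cell division genes were lower, and most genes of the amino acid response and most zinc finger genes of chromosome 19 were higher. In all, 5619 genes passed the threshold, an adjusted p under 0.05 (edgeR's quasi-likelihood test, adjusted by the Benjamini-Hochberg method), which is 43.9% of the genes tested. They split into 2708 higher (21.2%) and 2911 lower (22.7%), and the higher count was 1795 without untreated replicate B. Most changes were small: the median absolute log2 change of the called genes was 0.34, and 283 genes changed at least 2-fold, 162 up and 121 down. In 9424 genes (73.6%) the treated and untreated values did not overlap, far more than the 43.9% called, and 5618 of the called genes were among them. Values without overlap thus came with nearly every call. Where they are mentioned below for called genes, they describe the values and add no support to the call. Lower genes made up 51.8% of the calls, and 41.1% when libraries were scaled by their total reads alone, which moved the median log2 change of all genes from 0.0022 to 0.0534. Which direction had more calls thus turned with the scaling. The lists of genes described below are read against these shares.

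**Figure D1:**
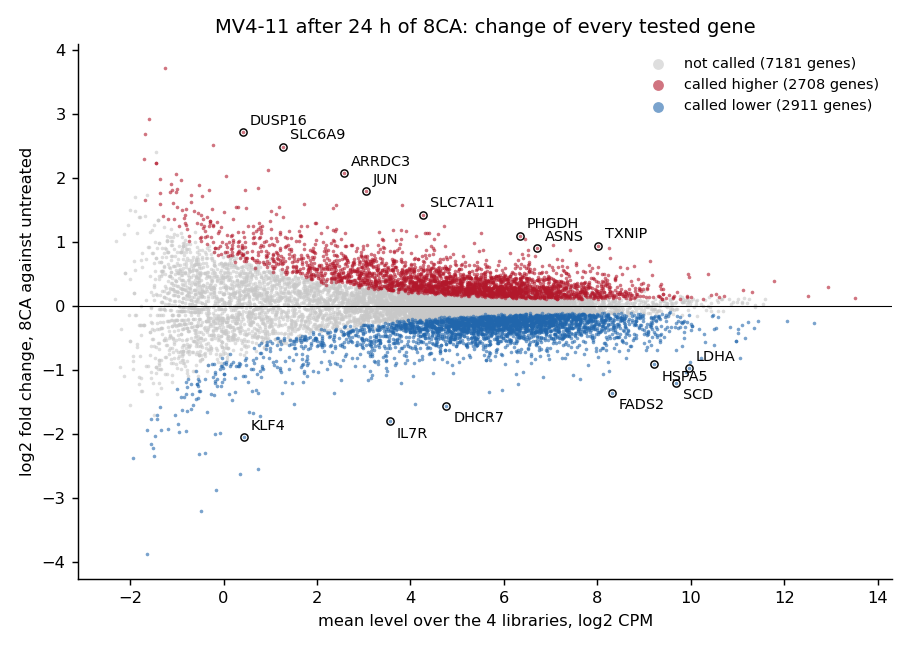
Each point is one of the 12800 genes tested, with its mean level in the 4 libraries on the x axis (log2 CPM) and its log2 change, 8CA minus untreated at 24 h, on the y axis. Genes called higher (2708) and lower (2911) are coloured, the rest are grey, and gene symbols mark genes of the lists described in the text; most coloured points lie within 1 log2 unit of 0.

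Genes were ranked by log2 change among the called genes with a mean level of at least 1 log2 CPM and no overlap between the groups. Of the 12 that rose most, SLC6A9, a glycine transporter of the plasma membrane, stood first. Its level was 0.890 and 1.04 CPM in the untreated libraries and 5.66 and 5.22 CPM with 8CA (log2 change 2.49, SE 0.252, adjusted p = 1.81e-06). ARRDC3, an arrestin that moves membrane receptors to degradation, went from 2.998 and 2.66 CPM to 12.4 and 11.6 CPM (log2 change 2.08, SE 0.134, adjusted p = 1.91e-08). For JUN, a subunit of the transcription factor AP-1, the values were 4.50 and 4.25 CPM untreated and 14.96 and 15.3 CPM treated (log2 change 1.79, SE 0.147, adjusted p = 1.98e-07). The ranking itself required that the groups not overlap. The others were FAXDC2, ADM2, CHAC1, DNASE2, HIST3H2A, SEMA3B, SNX29P2, SLC7A11 and FLRT1, with log2 changes from 1.59 for FAXDC2 down to 1.39 for FLRT1. DNASE2, a lysosomal nuclease, had less even replicates, at 0.890 and 1.72 CPM untreated and 2.87 and 4.84 CPM treated. SNX29P2 is a pseudogene that may share reads with its parent, so its value is uncertain.

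IL7R, the alpha chain of the interleukin-7 receptor, led the 12 genes that fell most by the same ranking. It had 21.4 and 22.2 CPM in the untreated libraries and 6.14 and 6.35 CPM with 8CA (log2 change −1.80, SE 0.0906, adjusted p = 1.59e-09). AQP3, a water and glycerol channel, had 3.42 and 3.84 CPM untreated and 1.40 and 1.43 CPM treated (log2 change −1.36, SE 0.182, adjusted p = 2.57e-05). RNF175, a RING finger protein, had 7.12 and 9.17 CPM untreated and 3.23 and 3.11 CPM treated (log2 change −1.36, SE 0.148, adjusted p = 3.66e-06). Of the other 9 genes, 6 belonged to lipid synthesis: DHCR7, LSS, ACAT2 and HMGCS1 of the sterol pathway and the desaturases FADS2 and SCD. The rest were the aldolase ALDOC, the glutamate transporter SLC17A7 and IL4I1, an amino acid oxidase, whose untreated values, 3.19 and 6.32 CPM, differed from each other more than those of the other 11.

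Cells make cholesterol from acetyl-CoA through the mevalonate pathway, and the transcription factor SREBP2, encoded by SREBF2, switches these genes on when sterols in the endoplasmic reticulum run low. Of 25 genes of cholesterol synthesis and uptake, 24 were lower with 8CA and 0 were higher, with a median log2 change of −0.84 against 0.0022 over all genes. DHCR7, which makes cholesterol from its last precursor, had 43.7 and 49.2 CPM in the untreated and 15.9 and 15.6 CPM in the treated libraries (log2 change −1.56, SE 0.0782, adjusted p = 1.59e-09). LSS, which closes the sterol rings, had 78.8 and 85.2 CPM and 31.0 and 33.6 CPM (log2 change −1.34, SE 0.0684, adjusted p = 1.66e-09). In these, as in HMGCS1, 109.9 and 130.5 CPM against 51.1 and 52.4 CPM, the treated values were close to each other and below the untreated ones. SREBF2 itself moved less, from 325 and 324 CPM to 271 and 287 CPM (log2 change −0.22, SE 0.0533, adjusted p = 0.00358), and its adjusted p was 0.0509 without 8CA replicate A. The 1 member not called was SCAP, the sterol sensor that escorts SREBP2, at 95.05 and 90.4 CPM untreated and 92.3 and 98.8 CPM treated (log2 change 0.04, adjusted p = 0.559), named here after its value was seen.

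The fatty acid genes moved the same way: 14 of 18 were lower and 0 higher, with a median log2 change of −0.38. The desaturases carried the largest changes. FADS2, which puts double bonds into polyunsaturated chains, had 497 and 514 CPM untreated and 189 and 206 CPM treated (log2 change −1.36, SE 0.0521, adjusted p = 1.28e-10). SCD, which makes monounsaturated fatty acids, had 1211 and 1272 CPM and 532 and 546 CPM (log2 change −1.20, SE 0.045, adjusted p = 1.28e-10). FADS1, the partner of FADS2, had 429.8 and 440.4 CPM and 211 and 217 CPM (log2 change −1.02, SE 0.0396, adjusted p = 1.28e-10). FASN, which builds palmitate, fell from 1381 and 1381 CPM to 734 and 767 CPM (log2 change −0.88, SE 0.0445, adjusted p = 1.64e-09). All of these were without overlap between treated and untreated libraries.

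Promoters of the sterol genes were read for the sterol response element, searched as TCACNCCAC on both strands from 250 bases before to 50 bases after the RefSeq start site. Promoters were on hand for 10127 of the 12800 tested genes (79.1%). The element was in 1 of 19 promoters of the cholesterol list (5.26%), that of SREBF2, against 1.05% of the promoters of all tested genes and 1.15% of all 27305 promoters. Shares were similar in 2 other lists, with 2 of 41 chaperone promoters (4.88%) and 1 of 22 glycolysis promoters (4.55%). The fatty acid, ATF4, replication and mitotic lists had 0 matches. The box CCAAT, read alone on both strands, was in 15 of the 19 promoters of the cholesterol list (78.9%) against 36.8% of tested genes. The SREBF2 stretch is shown because it holds the only match in the list, at chr22:41832947-41833005 on the plus strand (GRCh38.p14, RefSeq), with the element in capitals. A match is a description of the letters and not evidence of binding.
SREBF2: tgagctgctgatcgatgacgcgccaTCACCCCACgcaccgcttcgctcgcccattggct

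Glycolysis turns glucose into pyruvate and lactate with a gain of ATP. Of its 24 tested genes 22 were lower and 0 higher, with a median log2 change of −0.53. ALDOC, a minor aldolase, fell most, from 25.1 and 33.6 CPM in the untreated libraries to 10.1 and 10.1 CPM with 8CA (log2 change −1.54, SE 0.121, adjusted p = 1.35e-07). LDHA, which reduces pyruvate to lactate, had 1372 and 1409 CPM and 714 and 705 CPM (log2 change −0.97, SE 0.0439, adjusted p = 5.97e-10). PGK1, the kinase that forms ATP in the pathway, had 766 and 817 CPM and 488 and 494 CPM (log2 change −0.69, SE 0.0447, adjusted p = 2.03e-08). The treated libraries lay below the untreated ones in each. GAPDH, often taken as a reference gene, had 4557 and 4624 CPM untreated and 3725 and 4100.0 CPM treated (log2 change −0.23, SE 0.056, adjusted p = 0.00353), and the call was lost without 8CA replicate A (adjusted p = 0.0615). Reads of LDHA, GAPDH, PGAM1, TPI1 and ENO1 can be shared with processed pseudogenes, so their levels are uncertain. The members not called, named after their values were seen, were the phosphofructokinase PFKM, 2.53 and 1.99 CPM untreated and 3.07 and 2.68 CPM treated (log2 change 0.35, adjusted p = 0.208), and PFKFB3, which makes an activator of that step (log2 change −0.12, adjusted p = 0.33).

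TXNIP and the arrestin ARRDC4 are known targets of the glucose sensor MondoA and restrain glucose uptake. The arrestin ARRDC3, described above, was counted in the same list. TXNIP had 183 and 189 CPM untreated and 349.9 and 364 CPM with 8CA (log2 change 0.94, SE 0.0499, adjusted p = 2.22e-09), and ARRDC4 had 11.4 and 13.2 CPM and 18.5 and 17.7 CPM (log2 change 0.55, SE 0.0934, adjusted p = 0.000207). With ARRDC3 they were the 3 members of the 9 genes of this list that rose, beside 3 that fell. Of 20 targets of the hypoxia response, 9 were lower, 5 by the Wald test of DESeq2, and 4 higher. BNIP3, a mitophagy receptor of that list, went from 16.7 and 18.3 CPM to 9.85 and 9.11 CPM (log2 change −0.89, SE 0.117, adjusted p = 2.37e-05). NDRG1, a stress-responsive gene, had 56.7 and 75.3 CPM untreated and 35.0 and 38.6 CPM treated (log2 change −0.84, SE 0.109, adjusted p = 1.9e-05).

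The mitochondrial genes encoded in the nucleus fell in moderate steps. Of 61 subunits of the respiratory chain 46 were lower and 0 higher (median log2 change −0.34). Of 16 subunits of ATP synthase 12 were lower and 0 higher (−0.30), and of 21 genes of the citric acid cycle 17 and 0 (−0.30). UQCRQ, a small subunit of complex III, had 60.4 and 67.3 CPM untreated and 41.5 and 43.0 CPM treated (log2 change −0.60, SE 0.0833, adjusted p = 3.81e-05). ATP5G3, which forms the rotor ring of ATP synthase, had 191 and 201 CPM and 126 and 132 CPM (log2 change −0.60, SE 0.0487, adjusted p = 1.87e-07). IDH2, the mitochondrial isocitrate dehydrogenase, had 372 and 373 CPM and 267 and 284 CPM (log2 change −0.44, SE 0.0506, adjusted p = 6.6e-06). In each gene both treated values were below both untreated values. Among 81 mitochondrial ribosomal proteins 50 were lower and 2 higher, with a median of −0.25.

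**Figure D2:**
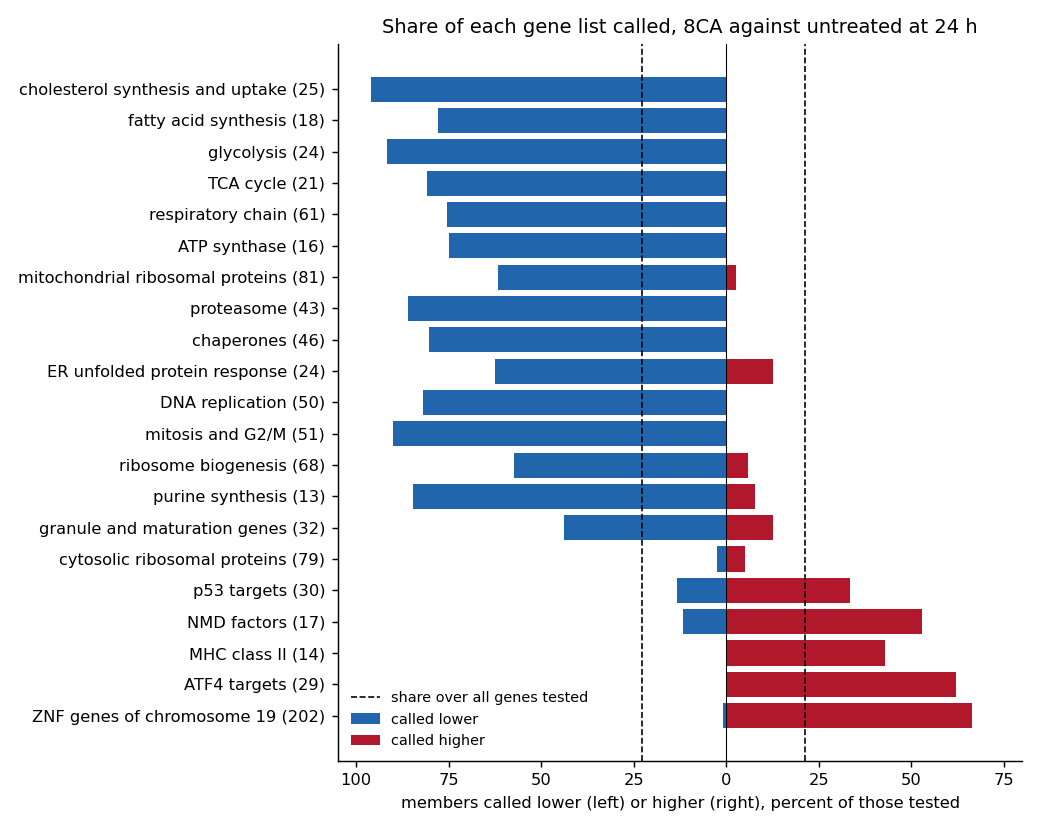
For 21 gene lists, bars give the percent of tested members called lower (left) and higher (right) with 8CA at 24 h. Dashed lines mark the shares over all tested genes, 22.7% lower and 21.2% higher. Cholesterol, glycolysis and mitosis genes lie almost wholly on the lower side, and the ATF4 targets and zinc finger genes of chromosome 19 on the higher side.

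When amino acids run short or the endoplasmic reticulum is stressed, kinases phosphorylate eIF2α and translation of ATF4 rises, and this transcription factor induces amino acid synthesis, transport and tRNA charging. Of 29 ATF4 targets and related genes 18 were higher and 0 lower, with a median log2 change of 0.43. ATF4 itself had 322 and 326 CPM in the untreated and 470.5 and 505 CPM in the treated libraries (log2 change 0.59, SE 0.0472, adjusted p = 1.59e-07). ASNS, the asparagine synthetase, had 77.8 and 75.2 CPM and 145 and 142 CPM (log2 change 0.91, SE 0.0448, adjusted p = 1.59e-09). PHGDH, the entry enzyme of serine synthesis, had 53.9 and 56.6 CPM and 116 and 120.5 CPM (log2 change 1.10, SE 0.0693, adjusted p = 1.42e-08). The treated pairs were close to each other and well above the untreated pairs. CHAC1, which degrades glutathione, had 2.81 and 3.21 CPM untreated and 8.62 and 9.33 CPM treated (log2 change 1.57, SE 0.16, adjusted p = 1.96e-06). SLC7A11, which imports cystine in exchange for glutamate, had 10.6 and 12.6 CPM and 31.4 and 31.2 CPM (log2 change 1.43, SE 0.102, adjusted p = 4.76e-08). DDIT3, which encodes the stress factor CHOP, went from 7.17 and 7.54 CPM to 13.1 and 14.2 CPM (log2 change 0.89, SE 0.0963, adjusted p = 3.48e-06), and TRIB3, a pseudokinase downstream of it, from 14.4 and 16.5 CPM to 23.4 and 26.2 CPM (log2 change 0.68, SE 0.0973, adjusted p = 4.62e-05).

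The amino acid response element of ATF4 and C/EBP factors was searched as TGATGNAA on both strands. It was in 4 of 23 promoters of the ATF4 list (17.4%), against 1.67% of the promoters of tested genes and 3.67% of all promoters. Stretches of 3 of them, ASNS, CHAC1 and ATF3, are shown because the match lies before the start site, with the matched letters in capitals (GRCh38.p14, RefSeq, each read along its gene). The 4th match was in SLC3A2, after its start site. ATF3, a stress-induced repressor, had 2.25 and 2.66 CPM untreated and 3.79 and 4.01 CPM treated (log2 change 0.66, SE 0.167, adjusted p = 0.00453). The ASNS stretch is chr7:97872444-97872501 on the minus strand, that of CHAC1 chr15:40953237-40953294 on the plus strand, where the element lies in reverse, and that of ATF3 chr1:212565191-212565248 on the plus strand.
ASNS: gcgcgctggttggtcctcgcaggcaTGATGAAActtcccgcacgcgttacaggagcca
CHAC1: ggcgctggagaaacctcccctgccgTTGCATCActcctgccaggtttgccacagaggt
ATF3: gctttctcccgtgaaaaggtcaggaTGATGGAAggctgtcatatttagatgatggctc

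The aminoacyl-tRNA synthetases of the cytosol, which load amino acids on tRNA, did not move as a block: 7 of 20 were higher and 4 lower. WARS, for tryptophan, had 234 and 247 CPM untreated and 311 and 322 CPM treated (log2 change 0.40, SE 0.046, adjusted p = 6.92e-06), and CARS, for cysteine, had 78.0 and 81.6 CPM and 103 and 110.1 CPM (log2 change 0.41, SE 0.0581, adjusted p = 3.88e-05). In the other direction, FARSA, a subunit for phenylalanine, fell from 278 and 275 CPM to 199 and 207 CPM (log2 change −0.45, SE 0.0448, adjusted p = 1.68e-06). Folate metabolism split as well, with 7 of 18 genes higher and 7 lower. The higher count was 4 without untreated replicate B. Besides PHGDH, the largest rise was in mitochondrial ALDH1L2, which makes NADPH from formyl-folate, at 61.3 and 61.1 CPM untreated and 129 and 122 CPM treated (log2 change 1.04, SE 0.0608, adjusted p = 7.41e-09). SHMT2, the mitochondrial serine hydroxymethyltransferase, had 285 and 288 CPM and 279.8 and 288 CPM, overlapping ranges with no call (log2 change −0.01, adjusted p = 0.88).

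Chaperones fold new and damaged proteins in the cytosol and mitochondria, and the heat shock factor HSF1 drives many of them. Of 46 tested genes 37 were lower and 0 higher, with a median log2 change of −0.33. HSP90AB1, the constitutive HSP90, had 2448 and 2417 CPM untreated and 1651 and 1671 CPM treated (log2 change −0.55, SE 0.0399, adjusted p = 5.74e-08). DNAJB1, a co-chaperone of HSP70, had 183 and 179.6 CPM and 125 and 129 CPM (log2 change −0.51, SE 0.0519, adjusted p = 1.8e-06). HSPB1, a small heat shock protein, had 122 and 125 CPM and 71.6 and 75.8 CPM (log2 change −0.74, SE 0.0607, adjusted p = 1.87e-07). Treated and untreated values did not overlap in these genes. The stress-inducible HSP70 genes HSPA1A and HSPA1B, near-identical copies whose reads may be split, had log2 changes of −0.83 and −0.83. Genes of the endoplasmic reticulum lumen fell too. HSPA5, the HSP70 of that compartment, had 816 and 814 CPM untreated and 425 and 441 CPM treated (log2 change −0.91, SE 0.0408, adjusted p = 5.95e-10). CALR, a lectin chaperone that holds calcium, had 1368 and 1350.0 CPM and 661 and 668 CPM (log2 change −1.03, SE 0.0431, adjusted p = 3.13e-10), and SDF2L1, a partner of HSPA5, fell from 32.2 and 32.2 CPM to 14.6 and 16.7 CPM (log2 change −1.04, SE 0.0852, adjusted p = 1.87e-07). Over the 24 genes of the unfolded protein response 15 were lower and 3 higher. The higher ones, named after their values were seen, were HERPUD1 (log2 change 0.19, adjusted p = 0.00146) and EDEM1 (log2 change 0.16, adjusted p = 0.00408) of ER-associated degradation, and the stress sensor ERN1 (log2 change 0.22, adjusted p = 0.0436), whose call was lost without untreated replicate B (adjusted p = 0.268), 8CA replicate A (0.156) or 8CA replicate B (0.0967), and with DESeq2 (0.133).

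The heat shock element was searched on both strands as the units GAA, TTC and GAA, each set 2 free bases from the next, and 4 of 41 chaperone promoters (9.76%) held it, against 0.336% of the promoters of tested genes and 0.487% of all promoters. The stretches of HSPA8, DNAJB6 and CHORDC1 are shown to set matches of this element side by side, in capitals (GRCh38.p14, RefSeq, each read along its gene). CHORDC1 held 3 overlapping matches, of which the capitals mark the one farthest from the start site, and HSPA8 had another match outside the stretch shown. They are chr11:123062329-123062386 on the minus strand, chr7:157336848-157336910 on the plus strand and chr11:90223072-90223134 on the minus strand. HSPA8, the constitutive HSP70, had 2993 and 2889 CPM untreated and 2301 and 2328 CPM with 8CA (log2 change −0.35, SE 0.0452, adjusted p = 2.11e-05).
HSPA8: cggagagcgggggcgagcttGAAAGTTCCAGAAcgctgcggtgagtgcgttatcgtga
DNAJB6: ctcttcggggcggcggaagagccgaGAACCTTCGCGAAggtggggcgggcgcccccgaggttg
CHORDC1: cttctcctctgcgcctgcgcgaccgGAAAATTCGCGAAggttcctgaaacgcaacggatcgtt

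The proteasome degrades ubiquitin-tagged proteins. Of 43 subunits and assembly factors 37 were lower and 0 higher, with a median of −0.36. PSMD11, a lid subunit, had 153 and 148 CPM untreated and 92.9 and 93.8 CPM treated (log2 change −0.69, SE 0.0427, adjusted p = 1.28e-08). PSMB2, of the core particle, had 216 and 208 CPM and 139.8 and 148 CPM (log2 change −0.56, SE 0.0443, adjusted p = 1.4e-07). Redox genes shared this direction: 16 of 28 were lower and 4 higher. PRDX1, an abundant peroxidase, went from 339 and 345 CPM to 198 and 195 CPM (log2 change −0.80, SE 0.0473, adjusted p = 8.19e-09). HMOX1 and NQO1, classical targets of NRF2, were not called, at 25.2 and 28.1 CPM untreated and 27.0 and 28.4 CPM treated for NQO1 (log2 change 0.06, adjusted p = 0.535) and 0.375 and 0.497 CPM and 0.479 and 0.605 CPM for HMOX1 (log2 change 0.30, adjusted p = 0.608), with overlapping values in both.

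Genes of DNA replication and cell division fell nearly throughout. Of 50 replication genes 41 were lower and 0 higher (median log2 change −0.44), and of 51 mitotic genes 46 and 0 (−0.36). FEN1, the flap endonuclease of lagging-strand synthesis, had 200.4 and 199 CPM untreated and 112 and 116 CPM treated (log2 change −0.81, SE 0.0502, adjusted p = 1.28e-08). MCM2, of the replicative helicase, had 481 and 483 CPM and 309.9 and 334 CPM (log2 change −0.58, SE 0.0542, adjusted p = 7.54e-07). CCNB1, the cyclin of mitotic entry, had 189.9 and 190.3 CPM and 124 and 125 CPM (log2 change −0.62, SE 0.044, adjusted p = 4.95e-08). All 3 pairs of values were well apart. MKI67, which coats mitotic chromosomes, moved less, from 1090.0 and 1023 CPM to 905 and 878 CPM (log2 change −0.24, SE 0.0527, adjusted p = 0.00146). Among 26 regulators of the G1/S step 12 were lower and 2 higher, and CCNE1, the cyclin that fires S phase, fell from 37.5 and 37.0 CPM to 20.7 and 19.9 CPM (log2 change −0.88, SE 0.0692, adjusted p = 1.4e-07), while CCND2, a cyclin of early G1, rose from 72.7 and 70.7 CPM to 92.3 and 88.5 CPM (log2 change 0.34, SE 0.0549, adjusted p = 0.000154). Homologous recombination had 19 of 37 genes lower and 3 higher, among the latter the damage kinase ATM, at 292 and 284 CPM untreated and 415 and 382 CPM treated (log2 change 0.47, SE 0.0701, adjusted p = 6.99e-05). BRCA2 had 106 and 108 CPM and 113 and 98.3 CPM, with overlap and no call (log2 change −0.01, adjusted p = 0.928).

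The E2F element, searched as GGCGGGAA on both strands, was in 10 of 44 replication promoters (22.7%) against 5.13% of the promoters of tested genes. The fatty acid list had it in 3 of 17 promoters (17.6%), and the other lists read in 0% to 9.09%. CCAAT was in 34 of 44 mitotic promoters (77.3%) against 36.8%. These shares describe letters, and no binding was measured.

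Purine synthesis and the handling of nucleosides bear on how a cell meets an adenosine analog. SLC29A1, the equilibrative transporter ENT1, had 115 and 112 CPM in the untreated and 69.2 and 75.8 CPM in the treated libraries (log2 change −0.65, SE 0.0582, adjusted p = 4.59e-07). ADK, the adenosine kinase that phosphorylates such analogs, had 101 and 105 CPM and 79.8 and 79.3 CPM (log2 change −0.37, SE 0.0499, adjusted p = 2.59e-05). Both were lower in each treated library. ADA, which deaminates adenosine, had 63.1 and 60.3 CPM untreated and 72.8 and 75.8 CPM treated (log2 change 0.27, SE 0.0682, adjusted p = 0.00487), with an adjusted p of 0.0543 without untreated replicate B. SLC28A3, a concentrative nucleoside carrier, fell from 10.3 and 10.8 CPM to 7.94 and 6.09 CPM (log2 change −0.59, SE 0.12, adjusted p = 0.000925). AK4, a mitochondrial nucleotide kinase, was low throughout, at 1.36 and 2.17 CPM untreated and 0.160 and 0.216 CPM treated (log2 change −3.21, SE 0.452, adjusted p = 4.18e-05). Over the 25 genes of this list 10 were lower and 3 higher. Of 13 genes of purine synthesis 11 were lower, 7 without untreated replicate A and 6 without 8CA replicate A, and 1 was higher, IMPDH2 (log2 change 0.19, adjusted p = 0.00536; its call was lost when 8CA replicate B was left out, adjusted p = 0.0516). PAICS, which joins 2 steps of the pathway, had 673 and 692 CPM and 514 and 511 CPM (log2 change −0.41, SE 0.0375, adjusted p = 5.63e-07). IMPDH1, at the branch to GMP, had 136 and 133 CPM and 104 and 101 CPM (log2 change −0.39, SE 0.0539, adjusted p = 3.16e-05). Deoxynucleotide supply followed, with 10 of 17 genes lower and 2 higher, and TK1, the thymidine kinase of S phase, went from 111 and 113 CPM to 64.3 and 71.5 CPM (log2 change −0.72, SE 0.0609, adjusted p = 2.75e-07).

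Short-lived transcripts were read because they decay quickly when RNA synthesis stops. Of 40 such genes 8 were higher and 10 lower, so their shares lay near those of all genes. The higher count was 5 without untreated replicate A, and the lower count 6 without untreated replicate B and 5 without 8CA replicate A. MYC rose from 590.0 and 582 CPM to 730.2 and 749.5 CPM (log2 change 0.34, SE 0.0445, adjusted p = 2.36e-05). MCL1, an anti-apoptotic member of the BCL2 family with a short-lived mRNA, had 239 and 255 CPM untreated and 230.4 and 226 CPM treated and was not called (log2 change −0.11, adjusted p = 0.105, or 0.0356 when only the 4 libraries were fitted). EGR1, an immediate early gene, fell from 8.11 and 7.22 CPM to 3.91 and 4.06 CPM (log2 change −0.94, SE 0.16, adjusted p = 0.000216), and KLF4, a factor of monocytic maturation, from 2.86 and 2.17 CPM to 0.598 and 0.605 CPM (log2 change −2.05, SE 0.255, adjusted p = 1.38e-05). Of the 12 tested subunits of RNA polymerase II 9 were lower, among them POLR2L, at 41.1 and 41.5 CPM and 23.8 and 25.3 CPM (log2 change −0.75, SE 0.0899, adjusted p = 9.57e-06). The 1 higher subunit was POLR2A, the largest (log2 change 0.14, adjusted p = 0.0169), whose adjusted p was 0.143 without untreated replicate B and 0.0814 without 8CA replicate B.

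Genes that host small nucleolar RNAs in their introns give spliced transcripts that nonsense-mediated decay (NMD) removes while ribosomes translate them. Of 22 such host genes 11 were higher and 5 lower. GAS5 had 175 and 181 CPM in the untreated and 255 and 258 CPM in the treated libraries (log2 change 0.53, SE 0.0445, adjusted p = 2.72e-07), and ZFAS1 had 123.4 and 122 CPM and 186 and 192 CPM (log2 change 0.62, SE 0.0512, adjusted p = 2.11e-07). Both treated values exceeded both untreated values in each. Of 17 NMD factors, several of whose own mRNAs are NMD targets, 9 were higher and 2 lower. UPF2 had 194 and 192 CPM untreated and 291 and 287 CPM treated (log2 change 0.59, SE 0.0392, adjusted p = 2.66e-08), and UPF3B had 27.2 and 28.7 CPM and 39.6 and 39.9 CPM (log2 change 0.51, SE 0.071, adjusted p = 3.92e-05).

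Genes of mRNA end processing were called about as often as all genes. Of 21 genes of cleavage and polyadenylation 4 were higher and 6 lower, the latter 3 without untreated replicate A or without 8CA replicate A. PCF11, which links cleavage to termination, had 142 and 146 CPM untreated and 204 and 193 CPM treated (log2 change 0.46, SE 0.0489, adjusted p = 2.78e-06), and PAPOLA, the main nuclear poly(A) polymerase, had 419 and 439 CPM and 349.7 and 339 CPM (log2 change −0.32, SE 0.0544, adjusted p = 0.000243). The cleavage factor genes CPSF6 (log2 change 0.05, adjusted p = 0.529) and CPSF7 (log2 change −0.08, adjusted p = 0.167) were not called, whereas NUDT21, which encodes their partner, fell from 236 and 248 CPM to 203 and 204 CPM (log2 change −0.25, SE 0.0766, adjusted p = 0.0162). The call for NUDT21 was lost without untreated replicate B (adjusted p = 0.128), 8CA replicate A (0.0884) or 8CA replicate B (0.0724). Of 21 genes that write, read or erase N6-methyladenosine 5 were higher and 3 lower. The higher count was 2 without untreated replicate A, 2 without 8CA replicate A and 3 without 8CA replicate B. METTL16, the methyltransferase of U6 RNA and of the MAT2A hairpins, had 92.3 and 87.9 CPM untreated and 84.2 and 85.7 CPM treated and was not called (log2 change −0.09, adjusted p = 0.198), nor was METTL3 (log2 change 0.07, adjusted p = 0.238). METTL14, its partner, rose slightly, from 35.8 and 34.3 CPM to 42.0 and 42.7 CPM (log2 change 0.27, SE 0.0646, adjusted p = 0.00307).

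Ribosome synthesis genes were mostly lower, 39 of 68 against 4 higher, with a median of −0.17. NCL, the nucleolar protein nucleolin, had 2390.0 and 2384 CPM untreated and 1805 and 1763 CPM treated (log2 change −0.42, SE 0.0446, adjusted p = 2.91e-06), and EBNA1BP2, an assembly factor of the large subunit, had 135 and 134 CPM and 84.8 and 88.0 CPM (log2 change −0.64, SE 0.0479, adjusted p = 7.9e-08). The proteins of the cytosolic ribosome had 4 of 79 genes called higher and 2 lower. That higher count became 31 with scaling by total reads alone, so no direction is given for them. Of 25 genes around MYC 14 were lower and 4 higher, and TFRC, the transferrin receptor, fell from 764 and 793 CPM to 548 and 527 CPM (log2 change −0.53, SE 0.0427, adjusted p = 1.58e-07). MGA, a repressor that competes for the partner MAX, rose from 180.0 and 164 CPM to 254 and 246 CPM (log2 change 0.54, SE 0.0614, adjusted p = 5.51e-06).

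The KMT2A fusion of MV4-11 is known to hold HOXA genes, MEIS1 and FLT3 active with the help of DOT1L and menin. Of 16 genes of this programme 8 were called higher and 1 lower, and the higher count was 5 without untreated replicate B or without 8CA replicate A. HOXA9 had 7.26 and 7.81 CPM untreated and 9.02 and 8.72 CPM treated and was not called (log2 change 0.23, adjusted p = 0.119). FLT3 rose slightly, from 483 and 486 CPM to 596 and 587 CPM (log2 change 0.29, SE 0.0395, adjusted p = 3.25e-05). JMJD1C, a demethylase that such leukaemias need, had 179 and 170.4 CPM and 244 and 233 CPM (log2 change 0.45, SE 0.052, adjusted p = 6.59e-06). The treated values were above the untreated ones in each of the 3. DOT1L fell from 249 and 242 CPM to 213 and 208 CPM (log2 change −0.22, SE 0.0425, adjusted p = 0.000605), and MEN1, which encodes menin, from 85.6 and 83.3 CPM to 70.0 and 73.4 CPM (log2 change −0.24, SE 0.0475, adjusted p = 0.000819). Among 22 genes of FLT3 and STAT5 signalling 7 were higher and 7 lower, with 4 higher without untreated replicate B. CCND3 went from 134 and 139 CPM to 83.7 and 86.0 CPM (log2 change −0.69, SE 0.0537, adjusted p = 1.14e-07).

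Granule proteins mark the stage at which myeloid cells mature. Of 32 genes of granules and maturation 14 were lower and 4 higher, with 8 lower and 0 higher without untreated replicate B, 9 lower without 8CA replicate A, and 1 higher without 8CA replicate B. Azurophil granule proteases were among the largest falls. ELANE had 239 and 230.4 CPM untreated and 139 and 146 CPM treated (log2 change −0.72, SE 0.0523, adjusted p = 5.89e-08). PRTN3 had 673 and 660.5 CPM and 396 and 428 CPM (log2 change −0.69, SE 0.0526, adjusted p = 9.14e-08), and CTSG had 214 and 218 CPM and 133 and 143 CPM (log2 change −0.64, SE 0.0494, adjusted p = 9.74e-08). The treated pair lay below the untreated pair in all 3 proteases. Among surface proteins of leukaemic stem cells 7 of 14 were higher and 4 lower. CD44, the hyaluronan receptor, had 289 and 291 CPM untreated and 445 and 442 CPM treated (log2 change 0.61, SE 0.0391, adjusted p = 1.65e-08), while CD47, which restrains phagocytosis, was not called (log2 change −0.05, adjusted p = 0.611). CEBPA, a factor of granulocytic fate, fell from 244 and 241 CPM to 185 and 198 CPM (log2 change −0.34, SE 0.052, adjusted p = 8.79e-05), and RUNX1 rose from 478 and 496 CPM to 599.6 and 575 CPM (log2 change 0.27, SE 0.0603, adjusted p = 0.00194).

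MHC class II presents peptides to CD4 T cells. Of 14 genes of the pathway 6 were higher and 0 lower. HLA-DRA, the alpha chain of HLA-DR, had 9.46 and 9.89 CPM untreated and 17.6 and 20.5 CPM treated (log2 change 0.97, SE 0.119, adjusted p = 1.15e-05), and CD74, the invariant chain chaperone, had 204 and 206 CPM and 268 and 286 CPM (log2 change 0.43, SE 0.0485, adjusted p = 4.83e-06). CIITA, the coactivator that controls them, had 7.96 and 7.36 CPM and 9.81 and 9.33 CPM and missed the threshold (log2 change 0.32, adjusted p = 0.0583, or 0.0226 when only the 4 libraries were fitted). HLA genes are similar to each other and polymorphic, so how reads were shared among them is uncertain.

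Targets of p53 moved in both directions at 24 h, and their counts at 8 h are given further below. Of 30, 10 were higher and 4 lower. The higher count was 5 without 8CA replicate B and 6 by DESeq2, and the lower count 2 without 8CA replicate A. CDKN1A, the inhibitor p21, had 76.8 and 84.4 CPM untreated and 76.8 and 80.3 CPM treated, with overlap and no call (log2 change −0.04, adjusted p = 0.617), and MDM2 had 268 and 279 CPM and 318 and 298 CPM (log2 change 0.17, adjusted p = 0.106, or 0.00093 when only the 4 libraries were fitted). TP53INP1, which promotes autophagy and cell death, rose from 10.9 and 12.6 CPM to 25.1 and 25.1 CPM (log2 change 1.09, SE 0.122, adjusted p = 4.79e-06). In the BCL2 family 5 of 16 genes were higher and 3 lower, with 3 higher without untreated replicate B and 2 without 8CA replicate B. BMF, a BH3-only killer protein, rose from 33.4 and 36.3 CPM to 63.7 and 63.6 CPM (log2 change 0.87, SE 0.0634, adjusted p = 5.89e-08), and BCL2, the target of venetoclax, rose from 278 and 281 CPM to 356 and 333 CPM (log2 change 0.30, SE 0.0448, adjusted p = 6.33e-05).

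Gene structure was set against the changes as a description. Of 202 tested zinc finger genes (symbols that start with ZNF) on chromosome 19, 134 were higher and 2 lower, with a median log2 change of 0.39. These genes lie in clusters of close copies, and their reads may be shared. The lower ones, named after their values were seen, were ZNF576 (log2 change −0.57, adjusted p = 0.000278) and ZNF584 (log2 change −0.66, adjusted p = 5.39e-05). Of 104 long intergenic RNAs 38 were higher and 4 lower. That higher count was 23 without untreated replicate A, 24 without untreated replicate B, 24 without 8CA replicate A and 22 by DESeq2. Of 240 antisense RNAs 68 were higher and 13 lower, with 43 higher without untreated replicate B or without 8CA replicate A, 38 by DESeq2, and 7 lower without untreated replicate A. Whether counting used strand is not stated, so reads of an antisense RNA and its partner may be mixed. The median log2 change rose with the genomic span of the gene, from −0.07 below 10 kb (434 higher and 838 lower of 3094) to −0.02 for 10 to 30 kb, 0.02 for 30 to 100 kb, 0.09 for 100 to 300 kb and 0.17 above 300 kb (119 higher and 35 lower of 344). Below 10 kb the higher count was 265 without untreated replicate B. Above 300 kb the lower count was between 18 and 23 when any of the 4 libraries was left out.

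**Figure D3:**
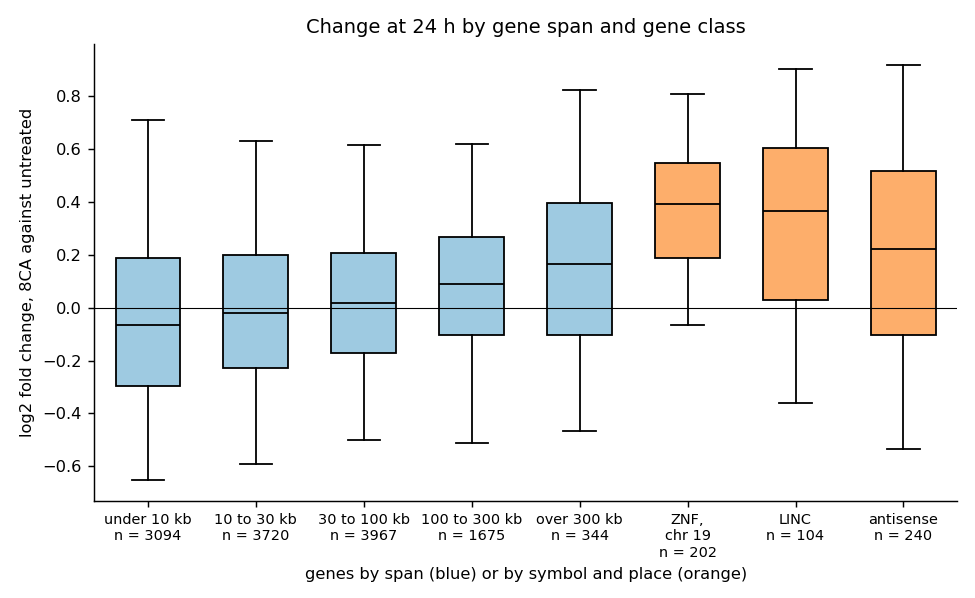
Boxes give the log2 change of tested genes, 8CA minus untreated at 24 h, by genomic span of the gene and for zinc finger genes of chromosome 19, long intergenic RNAs and antisense RNAs. Boxes span the quartiles, the line is the median and whiskers reach the 5th and 95th percentiles; the medians rise from −0.07 below 10 kb to 0.17 above 300 kb.

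The 8 h libraries show which changes came early. At 8 h, 1325 genes (10.4%) were called against the untreated cells of that time point, 586 higher (4.58%) and 739 lower (5.77%), and the change at 24 h differed from that at 8 h in 2088 genes (16.3%), 830 with a higher (6.48%) and 1258 with a lower log2 change at 24 h (9.83%). The count of 2088 was 1166 without 8CA replicate A of 24 h and 1262 without untreated replicate B of 24 h. By the same test of the difference, 20 of 25 cholesterol genes, 17 of 24 glycolysis genes, 45 of 51 mitotic genes, 37 of 50 replication genes and 30 of 43 proteasome genes had the lower change at 24 h, and 17 of 29 ATF4 targets the higher one. The untreated cells also moved between the times. DHCR7 had 25.4 and 25.2 CPM untreated and 18.1 and 19.6 CPM with 8CA at 8 h, against 43.7 and 49.2 CPM and 15.9 and 15.6 CPM at 24 h. SCD had 686 and 701 CPM and 505 and 541 CPM at 8 h, against 1211 and 1272 CPM and 532 and 546 CPM at 24 h. In both, the treated level changed less between the times than the untreated level, so the larger contrast at 24 h went with a higher control. How far the changed control contributed to the other differences was not tested.

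Other genes differed in the treated cells. SLC7A11 had a difference of 1.64 log2 units between the 24 h and the 8 h change (SE 0.156, adjusted p = 1.38e-05), and CHAC1 one of 1.60 (SE 0.265, adjusted p = 0.000895). CHAC1 stood at 2.81 and 2.68 CPM untreated and 2.17 and 3.27 CPM with 8CA at 8 h, overlapping values, before the treated level rose to 8.62 and 9.33 CPM at 24 h. IL7R had 26.7 and 27.3 CPM and 26.6 and 23.4 CPM at 8 h, with no call (−0.11, adjusted p = 0.381), before the treated level reached 6.14 and 6.35 CPM at 24 h (−1.69 for the difference, adjusted p = 6.7e-07). Other changes were already there at 8 h. JUN had 2.96 and 3.79 CPM untreated and 7.54 and 7.69 CPM treated at 8 h, and its later change did not differ from that beyond the threshold (0.62, adjusted p = 0.0856). HSPA5 was lower at both times, 1072 and 1082 CPM against 613 and 638 CPM at 8 h (−0.13 for the difference, adjusted p = 0.14). Of 46 chaperones 25 and of 68 ribosome synthesis genes 35 were already lower at 8 h, against 5.77% of all genes, whereas 0 of 61 respiratory chain genes were called at 8 h. Of 30 p53 targets 13 were higher and 1 lower at 8 h, against 4.58% and 5.77% of all genes. Their median log2 change was 0.22 at 8 h and 0.16 at 24 h.

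**Figure D4:**
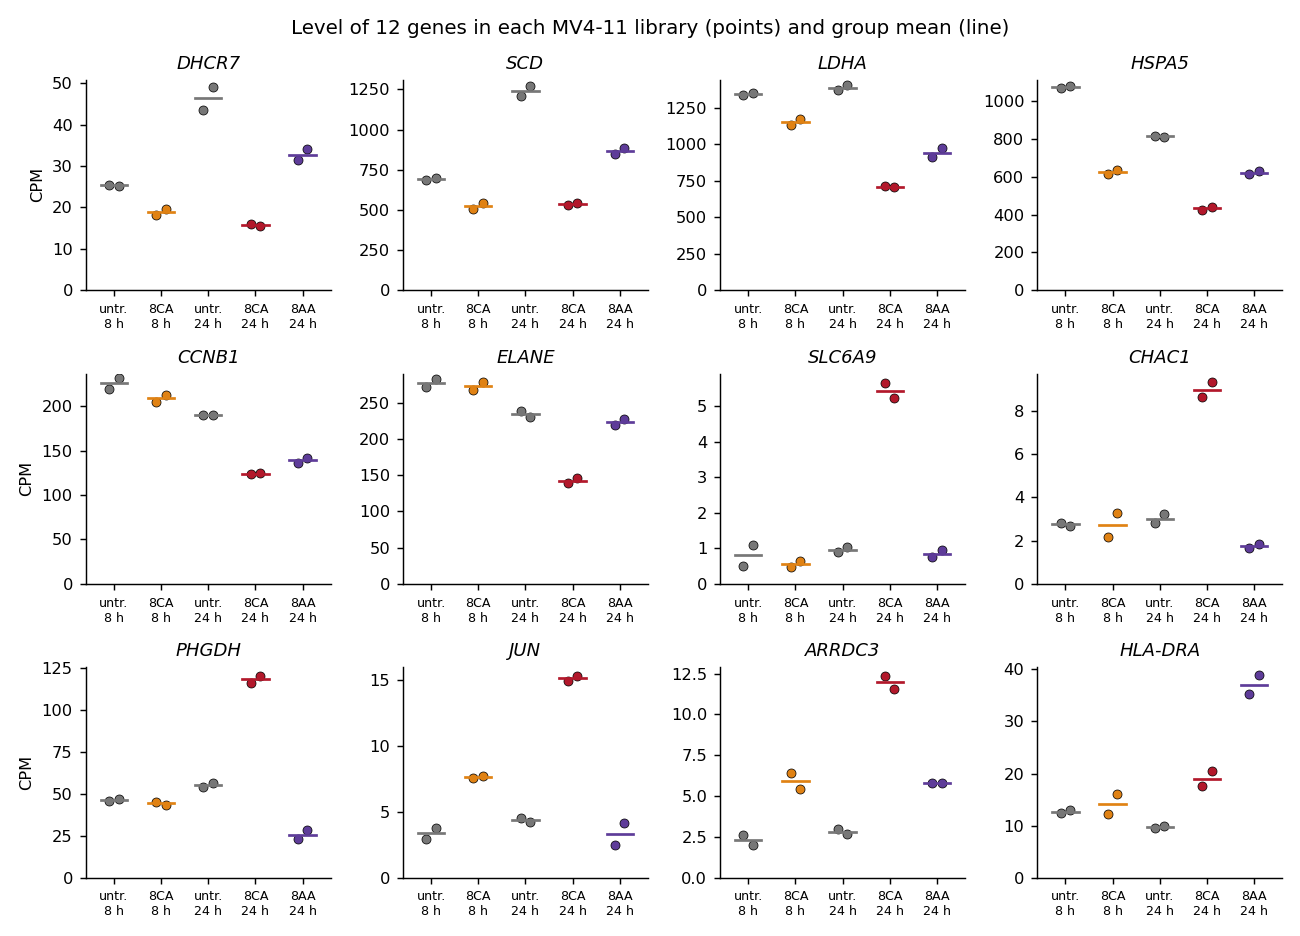
CPM of 12 genes in each MV4-11 library of 5 groups: untreated and 8CA at 8 h, and untreated, 8CA and 8AA at 24 h. Points are single libraries and the line is the mean of the 2 replicates; SLC6A9 and CHAC1 are high with 8CA at 24 h and in no other group shown, JUN is high with 8CA at both times, and HLA-DRA is highest with 8AA.

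8AA at the same dose and time shows where an amino group in place of the chlorine atom went with another response. The comparison was made between the 2 treated groups themselves, 1 pair of compounds at 1 μM and 24 h, because the changes of both drugs are measured against the same untreated libraries. The groups differed in 2716 of 12800 genes (21.2%), with 1213 higher (9.48%) and 1503 lower (11.7%) in 8CA. The count was 1167 without 8CA replicate A, 1392 without 8AA replicate B and 1768 without 8AA replicate A. The ATF4 targets stood apart: 26 of 29 were higher with 8CA than with 8AA. SLC6A9 had 5.66 and 5.22 CPM with 8CA and 0.751 and 0.947 CPM with 8AA (log2 difference 2.68, SE 0.258, adjusted p = 3.51e-06). SLC7A11 had 31.4 and 31.2 CPM and 5.83 and 5.30 CPM (2.49, SE 0.114, adjusted p = 1.1e-09). PHGDH had 116 and 120.5 CPM and 22.8 and 28.6 CPM (2.20, SE 0.0753, adjusted p = 2.9e-11), against 53.9 and 56.6 CPM untreated, so that the drugs lay on opposite sides of the control. 8AA against the untreated cells gave 3726 called genes (29.1%), 1773 higher (13.9%) and 1953 lower (15.3%). Against these shared controls, 18 ATF4 targets were higher with 8CA, while 0 were higher and 19 lower with 8AA. JUN, too, was higher with 8CA, at 14.96 and 15.3 CPM against 2.47 and 4.12 CPM (2.21, adjusted p = 1.15e-07).

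In the lipid genes 8CA gave the lower levels. Of 25 cholesterol genes 23 were lower with 8CA than with 8AA, and of 24 glycolysis genes 15, with 1 higher. DHCR7 had 15.9 and 15.6 CPM with 8CA and 31.5 and 34.0 CPM with 8AA (−1.06, SE 0.0804, adjusted p = 2.45e-07). Granule and MHC class II genes also separated the drugs: 19 of 32 granule genes were lower with 8CA, 12 without 8CA replicate A, and 10 of 14 class II genes. PRTN3 had 396 and 428 CPM with 8CA and 683 and 719.9 CPM with 8AA, the latter close to the 673 and 660.5 CPM of untreated cells (−0.77, adjusted p = 8.76e-08). HLA-DRA had 17.6 and 20.5 CPM with 8CA and 35.2 and 38.9 CPM with 8AA (−0.96, adjusted p = 7.81e-06). Against the shared untreated libraries, 13 of 32 granule genes were higher and 3 lower with 8AA. Of 14 class II genes 11 were higher and 0 lower with 8AA, when 13.9% of all genes were higher and 15.3% lower. The differences between the drugs thus include rises with 8AA. F13A1, a coagulation factor of monocytes, had 5.50 and 5.92 CPM and 22.97 and 22.4 CPM, below and above the 11.5 and 10.3 CPM of the control (−1.99, adjusted p = 3.24e-09). The NMD factors were higher with 8CA in 9 of 17 genes, 5 without 8CA replicate A, and UPF2 had 291 and 287 CPM against 175 and 178 CPM (0.71, adjusted p = 8.36e-09).

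No difference between the drugs was called in many other genes, which does not show that they act alike. For PLK1, a mitotic kinase, 8CA minus 8AA was −0.06 log2 units with a 95% interval of −0.17 to 0.05, and for the cyclin CCNA2 it was −0.08 with an interval of −0.21 to 0.05. For EGR1 it was 0.03, with a wide interval of −0.36 to 0.41, and for FAXDC2, a gene of the fatty acid hydroxylase family, 0.24 with an interval of −0.04 to 0.52. Over the mitotic list, 5 of 51 genes were higher and 4 lower with 8CA than with 8AA. The higher count fell to 1 without 8AA replicate A or 8CA replicate A, to 2 without 8AA replicate B and to 3 without 8CA replicate B.

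**Figure D5:**
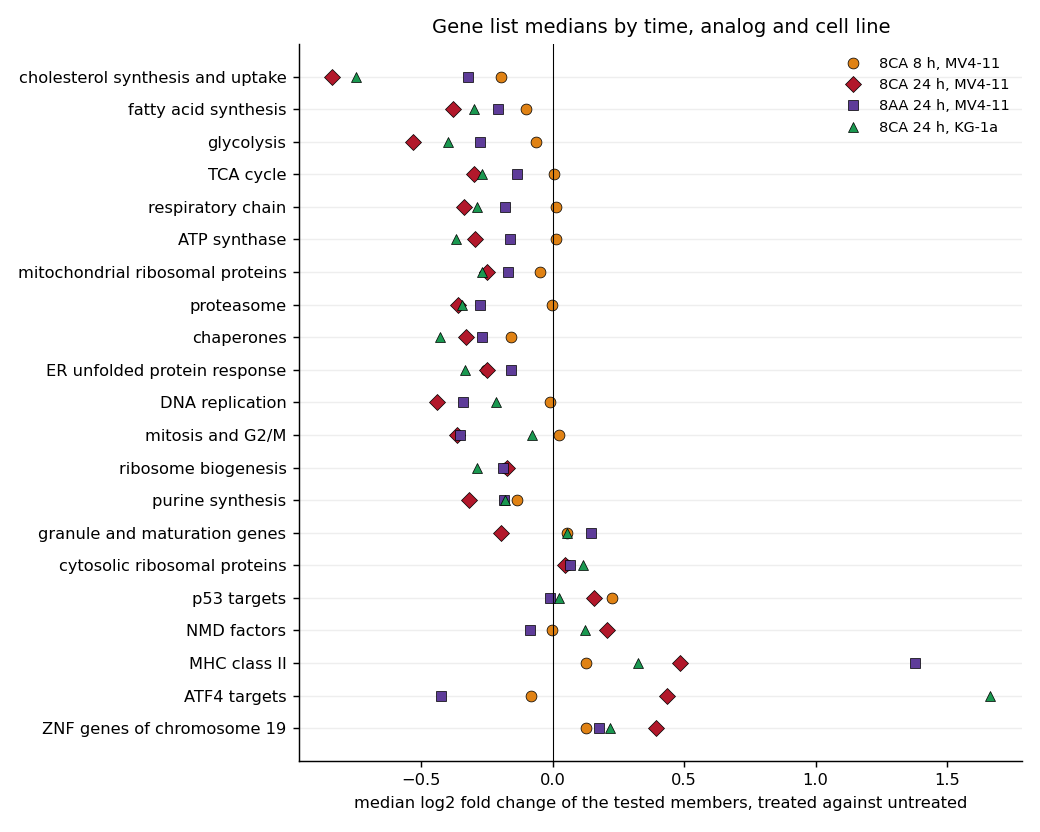
Median log2 change of each of 21 gene lists for 4 contrasts against the matching untreated cells: MV4-11 with 8CA at 8 h and at 24 h, MV4-11 with 8AA at 24 h, and KG-1a with 8CA at 24 h. The ATF4 targets show the widest spread of the lists plotted, with a median of 0.43 for 8CA in MV4-11 at 24 h, −0.42 for 8AA and 1.66 in KG-1a; both 24 h MV4-11 contrasts use the same untreated libraries.

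KG-1a is another AML line, of immature type, given the same dose for the same time. There, 6021 of 12711 genes were called. The response of MV4-11 differed from that of KG-1a in 1574 of 14055 genes (11.2%), with 809 higher (5.76%) and 765 lower (5.44%) in MV4-11, from a fit of all 24 libraries. The count was 1008 without untreated replicate A of KG-1a, 1030 without 8CA replicate A of KG-1a and 1040 without untreated replicate B of MV4-11. The amino acid response was the smaller one in MV4-11, with 26 of the ATF4 targets lower in the test of the difference. In the scaling of that fit, ASNS went from 80.1 and 77.3 CPM to 151 and 148 CPM in MV4-11 and from 22.6 and 24.2 CPM to 115 and 113 CPM in KG-1a (difference −1.36, SE 0.0847, adjusted p = 1.03e-10). CHAC1 went from 2.90 and 3.29 CPM to 8.99 and 9.72 CPM and from 3.48 and 3.50 CPM to 54.5 and 51.1 CPM (−2.33, adjusted p = 1.6e-08). DDIT4, an inhibitor of mTORC1, had 21.5 and 30.8 CPM and 22.1 and 23.1 CPM in MV4-11, with overlap, but 29.04 and 30.9 CPM and 198 and 189 CPM in KG-1a (−2.90, adjusted p = 7.89e-12). In each of these the levels in MV4-11 rose less or did not separate, while those in KG-1a were far apart.

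Other genes took different courses in the lines. JUN went from 4.63 and 4.36 CPM to 15.6 and 16.0 CPM in MV4-11, and had 1.11 and 0.835 CPM and 0.984 and 0.523 CPM in KG-1a, where the values overlapped (2.17, adjusted p = 0.00162). DUSP16, a phosphatase of the kinases JNK and p38, went from 0.531 and 0.417 CPM to 3.16 and 3.20 CPM in MV4-11, and had 11.9 and 12.8 CPM and 9.97 and 8.61 CPM in KG-1a (3.14, adjusted p = 1.47e-07). CTSG fell in MV4-11, from 220.0 and 224 CPM to 139 and 149 CPM, and rose in KG-1a from 3.58 and 4.28 CPM to 9.30 and 8.13 CPM (−1.78, adjusted p = 3.76e-09). Mitotic genes were lower in MV4-11 relative to KG-1a in 25 of 51, a count that was 16 without untreated replicate B of MV4-11 or without KG-1a untreated replicate A, untreated replicate B or 8CA replicate B. MKI67 had 1122 and 1051 CPM and 944 and 915 CPM in MV4-11 and 1165 and 1182 CPM and 1286 and 1272 CPM in KG-1a (−0.35, adjusted p = 0.00136). Of the 25 cholesterol genes 5 were lower and 1 higher in MV4-11, and the lower count was 1 to 3 without any of the 8 libraries other than untreated replicate A of MV4-11 and 8CA replicate B of KG-1a.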

How the data were processed

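RNA was prepared with a column kit and sequenced in 24 libraries. The deposited file holds raw read counts per gene, which the authors made by trimming (Trimmomatic), alignment (STAR 2.6.0) and counting (HTSeq 0.11.1). Their processing notes name builds hg19 and hg38 without roles, and only 3.7% of 22339 gene positions lie within 1 kb of a GRCh38 annotation, so no gene coordinates of the table are printed. Groups came from the labels of cell line, drug and time. Weakly expressed genes were dropped (filterByExpr at 10 counts), TMM factors scaled the libraries, and 12 MV4-11 libraries, or all 24 for the difference between lines, were fitted together with edgeR 4.0.16 (quasi-likelihood, Benjamini-Hochberg adjustment, R 4.3.3). SE is the log2 change divided by the square root of F. Alternatives were DESeq2 1.42.0, other scalings and filters, a replicate block, fewer libraries and each library left out. The tests were tested on simulated data. The genes described, the comparison and the 63 gene lists were chosen with earlier results of these data known. Genes named are the 12 that rose and fell most, list anchors and up to 4 called members a list, genes the study's text names, the 5 highest and lowest of each difference test, and others where said. Promoters are RefSeq sequences (GRCh38.p14). Library totals are given with the results. Some genes are not reported here.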

Additional observations from a re-analysis of the deposited data

Results flagged for a closer look

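Results are listed here because a test of the difference itself found that the response to 8CA was not the same at both times or in both cell lines. The response of MV4-11 differed between 24 h and 8 h in 2088 genes. The 5 genes with the most negative difference, 24 h minus 8 h on the log2 scale, were PLCB4 (−2.06), RNF175 (−1.83), IL4I1 (−1.80), IL7R (−1.69) and IL1RN (−1.60). The 5 with the most positive difference were SLC7A11 (1.64), CHAC1 (1.60), TMEM9B-AS1 (1.42), ADM2 (1.42) and ABCA3 (1.27). For IL4I1 the adjusted p was 0.0617 without untreated replicate A of 8 h, 0.0718 without 8CA replicate B of 8 h, 0.0691 without untreated replicate B of 24 h and 0.0757 without 8CA replicate A of 24 h.

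At 24 h the response of MV4-11 differed from that of KG-1a in 1574 genes. Among called genes above the same mean level, the most negative differences, MV4-11 minus KG-1a, were those of LEF1 (−3.38), TSC22D3 (−3.36), SLCO4C1 (−2.93), DDIT4 (−2.90) and AK4 (−2.59). Among the most positive were those of MZB1 (5.59), IRX3 (4.86), DUSP16 (3.14) and JUN (2.17). TSC22D3, a glucocorticoid-induced leucine zipper protein, had 19.8 and 23.4 CPM untreated and 18.1 and 19.2 CPM treated in MV4-11, and 1.84 and 1.36 CPM and 14.7 and 13.9 CPM in KG-1a. AK4 had 1.40 and 2.23 CPM and 0.166 and 0.225 CPM in MV4-11, and 106 and 107 CPM and 72.0 and 68.6 CPM in KG-1a. SLCO4C1, LEF1, MZB1 and IRX3 were low in one of the lines. Both untreated MV4-11 libraries held 0 reads of MZB1 and both treated KG-1a libraries 0 reads of IRX3, so these fitted differences depend on the prior count and set no bound. The call for LEF1 was lost with DESeq2 (adjusted p = 0.0946), without untreated replicate A of MV4-11 (0.0977) and without 8CA replicate B of MV4-11 (0.13). MZB1 lost its call without any of 7 of the 8 libraries, with adjusted p from 0.0506 to 0.253. IRX3 lost its call without any of 3 libraries of KG-1a (0.119 to 0.137): untreated replicate B and both 8CA replicates.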

How the results depend on the processing

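No named gene with a call in the main or the alternative fit had opposite directions in them. A change of sign without a call in either fit was not counted. The balance of higher and lower calls did turn. More genes were higher than lower with scaling by total reads alone (2336 lower, 3352 higher) or by upper quartile (2491, 3185). The same held with all 24 libraries (2648, 2951), with no filter (2852, 3006) and with at least 10 counts in each library (2719, 2854). With a call that also asks for a 2-fold change, the genes lower with 8CA at 24 h numbered 121 and those higher 162, the differences between 24 h and 8 h 126, between 8CA and 8AA 144, and between MV4-11 and KG-1a 163. Without the 2-fold rule, the difference between MV4-11 and KG-1a numbered 1574 genes, and 2578 when only the libraries of that contrast were fitted. Leaving out 1 library at a time gave 1795 to 2123 genes higher with 8CA, 1166 to 1814 for the difference between times, 1167 to 1845 between drugs and 1008 to 1148 between lines. With the DESeq2 Wald test 2344 genes were lower, 1973 higher, and the differences numbered 1483, 1832 and 1309. The replicate letters do not pair the samples by the labels, and the correlation of same-letter deviations between the untreated and 8CA groups at 24 h was 0.0233 (range over 15 pairs of groups −0.117 to 0.159). With the letter as a replicate block, 3211 genes were lower and 2986 higher, and the differences numbered 2817, 3503 and 1497. Of the 5619 called genes, the same call was made for 99.9% with the block, 76.8% with DESeq2 and 67.9% to 78.1% with 1 library left out, and 0 were called the opposite way. Of 333 genes examined, 61 changed their call under any alternative, in 145 gene and setting pairs losing it and in 38 gaining it, of 4313. In data simulated for this comparison on 12675 genes, 47 of 65 genes changed by 0.5 log2 units were recovered, 63 of 67 at 1 and 68 of 68 at 2. There, 200 genes were changed, each with a mean above 1 CPM, and 16 calls fell on genes not changed. That is a far smaller share than the 43.9% called in the data, so these rates may not carry over.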

Other observations

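Other gene groups gave the following counts with 8CA at 24 h, when 21.2% of all genes were higher and 22.7% lower. Protein arginine methyltransferases and their partners, which methylate histones and splicing proteins, were lower in 6 of 12 genes and higher in 1. PRMT1, which makes most of the asymmetric dimethylarginine in cells, had 294 and 292 CPM untreated and 200.1 and 196 CPM treated (log2 change −0.56, SE 0.0506, adjusted p = 4.92e-07). Among 20 SR proteins and their kinases, which choose splice sites, 9 were lower and 3 higher. SRSF2, a splicing factor often mutated in AML, went from 449 and 468 CPM to 327 and 326 CPM (log2 change −0.49, SE 0.0455, adjusted p = 7.53e-07), whereas CLK4, a kinase of SR proteins, rose from 27.3 and 26.8 CPM to 40.9 and 39.5 CPM (log2 change 0.57, SE 0.0693, adjusted p = 1.01e-05). DNA methylation genes divided evenly, 6 higher and 6 lower of 15, with 3 higher without 8CA replicate A. The maintenance factor UHRF1 fell from 414 and 408 CPM to 264 and 259.5 CPM (log2 change −0.65, SE 0.0409, adjusted p = 1.39e-08), and TET2, a 5-methylcytosine dioxygenase, rose from 42.5 and 43.2 CPM to 56.2 and 55.5 CPM (log2 change 0.38, SE 0.0607, adjusted p = 0.000115).

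Genes of autophagy and the lysosome were higher in 11 of 44 and lower in 6. SESN2, a leucine sensor upstream of mTORC1, had 12.4 and 14.2 CPM untreated and 20.2 and 21.9 CPM treated (log2 change 0.66, SE 0.115, adjusted p = 0.000277), and HEXA, a lysosomal hexosaminidase, had 22.0 and 21.0 CPM and 30.2 and 31.3 CPM (log2 change 0.51, SE 0.0767, adjusted p = 6.82e-05). Of 34 interferon-stimulated genes 9 were higher and 2 lower, and IFIH1, a sensor of double-stranded RNA, rose from 4.50 and 5.06 CPM to 7.86 and 7.86 CPM (log2 change 0.72, SE 0.134, adjusted p = 0.00049). HLA-E, a class I molecule that natural killer cells read, rose from 236 and 238 CPM to 383 and 411 CPM (log2 change 0.74, SE 0.0488, adjusted p = 2.07e-08). Of 24 NF-κB targets 1 was higher and 4 lower, the latter 1 without untreated replicate B or 8CA replicate A and 2 without 8CA replicate B. The higher one was CFLAR, an inhibitor of death receptor signalling, at 129 and 123.4 CPM untreated and 178 and 174 CPM treated (log2 change 0.48, SE 0.0426, adjusted p = 4.83e-07). Its log2 difference between 8CA and 8AA was 0.03, with a 95% interval of −0.06 to 0.12.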
